A study of Homo sapiens with 8 samples.

Results

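The response to trichostatin A (TSA) was examined in DLD1 cells that had been depleted of UHRF1. DLD1 is an established human colorectal cancer cell line. The comparison holds 4 of the 8 arrays of the series, which were chosen by their labels. There were 2 arrays of cells given siRNA against UHRF1 and mock treatment (ethanol) and 2 arrays of cells given the same siRNAs and 300 nM TSA. All cells received siRNA for 48 h before 24 h with the agent. Replicate 1 of each agent was made with siUHRF1-1 and replicate 2 with siUHRF1-2, and the arrays were paired by this siRNA number. The replicates are therefore 2 different siRNAs in a single cell line. The depletion was transient and came from siRNA, so no clone of knockout cells was selected. The 4 other arrays came from cells with control siRNA (siCONT), 2 with mock and 2 with TSA, and they are used below only to set the response beside that of cells without depletion. Nothing in the labels says whether siCONT arrays of an agent came from separate cultures or the siRNAs from separate experiments. The siRNA was a block, so p-values measure how far the TSA change differed between the 2 siRNAs, with the spread shared across probes.

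TSA blocks the zinc-dependent histone deacetylases (HDACs), which remove acetyl groups from histones and other proteins and work within repressor complexes. Cells given an HDAC inhibitor usually stop dividing, and both higher and lower RNA levels are found. UHRF1 binds hemimethylated DNA behind the replication fork and brings the maintenance methyltransferase DNMT1 to it. It also reads and ubiquitinates histone H3. Genes kept silent by DNA methylation often lie in deacetylated chromatin, and the study asked what the loss of UHRF1 and the block of HDACs do to such genes in colorectal cancer cells.

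A level is the log2 intensity of a probe minus the 75th percentile of its array, and a probe at that percentile has level 0. A change is the level with TSA minus the level with mock, averaged over both siRNAs, on the log2 scale. Between 21927 and 24291 of 50599 probes exceeded background clearly, by the scanner software's flag, on each array. All arrays lay on 1 slide and belonged to 1 scan. Mock arrays lay in slide row 1 and TSA arrays in slide row 2, so TSA and slide row cannot be told apart. All 7 epithelial markers were above background, their summed linear signal lay between 1501 and 2236 times the 75th percentile on the 4 arrays, and 0 of 7 were called in either direction. The summed signal of 6 intestinal markers was 105 and 134.5 with mock and 54.8 and 87.2 with TSA. Markers of other cell types had lower sums than these. The summed signal of 7 fibroblast markers was 0.254 and 0.35 with mock and 0.972 and 1.64 with TSA. That of 6 endothelial markers was 0.566 and 0.435 with mock and 1.77 and 1.66 with TSA, where VWF, the von Willebrand factor gene, rose by 2.23. Both sums were higher with TSA for both siRNAs, and their part in other results was not tested. The sum lay between 7.17 and 11.6 for the 7 leukocyte markers on the array, where most of it came from CD79A (levels 2.31 and 3.18 with mock, 3.20 and 2.93 with TSA). COL1A2, COL3A1, PECAM1, KDR, TEK, CLDN5, PTPRC, CD3E, MS4A1 and ITGAM were not well above background on any of the 4 arrays. In bulk RNA, fewer cells of a type and less RNA per cell cannot be told apart.

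UHRF1, the target of the siRNAs, is given before other genes. Its probe (chromosome 19, 4962065 to 4962124, hg19) had levels of 0.34 with siUHRF1-1 and −0.02 with siUHRF1-2 under mock. With TSA these were −1.56 and −2.14. Both TSA arrays lay below both mock arrays, and the change was −2.01 (SE 0.23, limma adjusted p 0.00209). In siCONT cells its levels were 1.98 and 2.01 with mock and 1.04 and 1.01 with TSA, above both depleted arrays of the same agent. The siRNA target had less RNA in the TSA arrays than in the mock arrays to which they were compared.

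Of 23912 probes tested with limma, 5312 (22.2%) were called, which means a Benjamini-Hochberg adjusted p under 0.05 and at least a 2-fold change. They carried 4555 different names, which include names of transcripts without a gene symbol. There were 3014 higher probes (12.6%) and 2298 lower probes (9.61%). All 5312 moved in the same direction with both siRNAs, and 4062 of them changed at least 2-fold with each. The fit takes its error from the difference between both siRNAs, so the shared direction follows largely from the call. Rises were larger than falls when values below background were taken as they stand. At least 8-fold was reached by 611 higher and 74 lower probes, and the median change of the called probes was 1.92 upward and −1.38 downward. Of the higher probes, 1122 (37.2%) were not well above background on either mock array, and 281 lower probes (12.2%) were not so on either TSA array. When 1 probe was kept for each gene with a current symbol, 3242 of 14312 genes (22.7%) were called, 1721 higher (12%) and 1521 lower (10.6%). The median change was −0.04 over all probes tested and −0.08 over these genes. Higher probes made up 56.7% of the called ones, but 30.8% when arrays were scaled to their median and 68% when the percentile was taken over probes detected on all arrays. With only probes well above background on all 4 arrays the share was 45.8%, from 1604 higher and 1896 lower probes. Leaving out the siUHRF1-1 or the siUHRF1-2 array with TSA, in fits without the siRNA block, left 1891 and 2173 called probes.

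**Figure D1:**
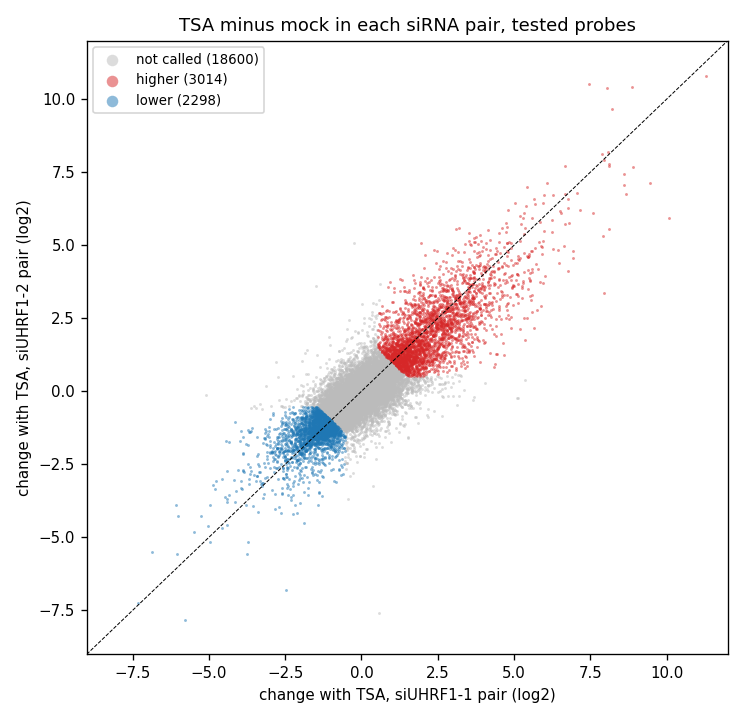
Each point is one of 23912 tested probes, with the log2 change with TSA in the siUHRF1-1 pair on the x axis and in the siUHRF1-2 pair on the y axis. Red points are the 3014 probes called higher and blue points the 2298 called lower. Called points have the same sign on both axes, which follows largely from the call.

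The changes with the 2 siRNAs were correlated. Both pairs had a Pearson r of 0.846 across tested probes, which are not independent and share the 4 arrays' scaling. A probe dim in 1 group is tested only if both arrays of the other are bright, which favours a shared direction. Over the 20872 probes well above background on all 4 arrays r was 0.798. A 2-fold change was found for 6438 probes in the siUHRF1-1 pair (26.9%) and for 5604 in the siUHRF1-2 pair (23.4%). In both pairs and the same direction it was found for 4062. Only 19 probes changed at least 2-fold in opposite directions. They included BEX5, with levels of 1.62 and 0.12 with siUHRF1-1 (mock, then TSA) and −1.11 and 2.49 with siUHRF1-2, and ALDOC, a glycolytic aldolase, with changes of −1.96 and 1.04. The order was turned for CD59, an inhibitor of complement, with changes of 1.38 and −1.20. None of these 3 passed the test.

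The largest rises were of genes with little or no signal under mock. HBA2, an alpha globin (chromosome 16, 223560 to 223619, hg19), had levels of −3.89 and −5.61 under mock and 4.14 and 4.77 with TSA. It was at least 266-fold higher (limma adjusted p 0.00033). A fold given as "at least" sets the bright group against the lowest signal that counted as well above background, since the dim group has only a bound. By the same measure the testis gene SPANXB1 was at least 146-fold higher, the gut peptide neurotensin (NTS) at least 112-fold, TRIML2 at least 75.3-fold, SPANXA1 at least 72.9-fold, the secretoglobin SCGB2A1 at least 60.5-fold and cholecystokinin (CCK) at least 49.5-fold. The siRNAs differed most for NTS, at 1.53 with siUHRF1-1 and 4.90 with siUHRF1-2 under TSA, and for CCK, at 3.38 and 0.68. SPANXA1 and SPANXB1 belong to a family of near-identical copies, and their probes may read other copies too.

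Among genes well above background on at least 1 mock array, the hair keratin-associated gene KRTAP3-1 went from −3.18 and −2.30 to 4.94 and 5.49, a change of 7.95 (SE 0.24, limma adjusted p 0.000145). WFDC21P went from −4.73 and −3.11 to 3.86 and 4.31. The interstitial collagenase MMP1 went from −3.78 and −2.72 to 3.27 and 4.06. The alkaline phosphatase genes ALPG and ALPP, normally germ cell and placental forms, were well above background on all 4 arrays. ALPG had levels of 0.85 and 0.41 under mock and 6.83 and 7.11 with TSA, an 81-fold rise. ALPP went from −1.28 and −1.22 to 4.39 and 5.18, a 65.7-fold rise. These near-identical copies can share signal. DHRS2, a short-chain dehydrogenase known to respond to HDAC inhibitors, rose 73.1-fold, and the elastase inhibitor PI3 rose 72.7-fold. The slow skeletal troponin gene TNNT1 rose 44.4-fold and the neuropeptide precursor VGF 34.1-fold. For each of these 9 genes both TSA arrays lay above both mock arrays. WFDC21P, MMP1, DHRS2 and PI3 were well above background on 1 of the 2 mock arrays. Those beyond KRTAP3-1, WFDC21P and MMP1 were picked after their values had been seen.

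Large falls included genes of the intestinal epithelium and of lipid metabolism. The fatty acid binding protein gene FABP1 had levels of 0.12 and 2.04 under mock and −5.65 and −5.79 with TSA. It was at least 24.7-fold lower (limma adjusted p 0.000501). The oxidase gene NOX1 was at least 14.3-fold lower. Where both groups were measured, MROH2A went from 4.06 and 3.22 to −2.80 and −2.27, and the Notch-modifying glycosyltransferase LFNG from 2.84 and 3.07 to −2.63 and −1.73. The galectin LGALS4 went from 5.04 and 5.09 to 0.07 and −0.07, a change of −5.06 (SE 0.23, limma adjusted p 0.000308). PHGR1 and GPA33 changed by −4.82 and −4.77, and PIGZ, well above background on 1 of 2 TSA arrays, by −5.81. LCN15, PSCA and CKB, picked after their values had been seen, changed by −4.49, −4.09 and −4.05.

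**Figure D2:**
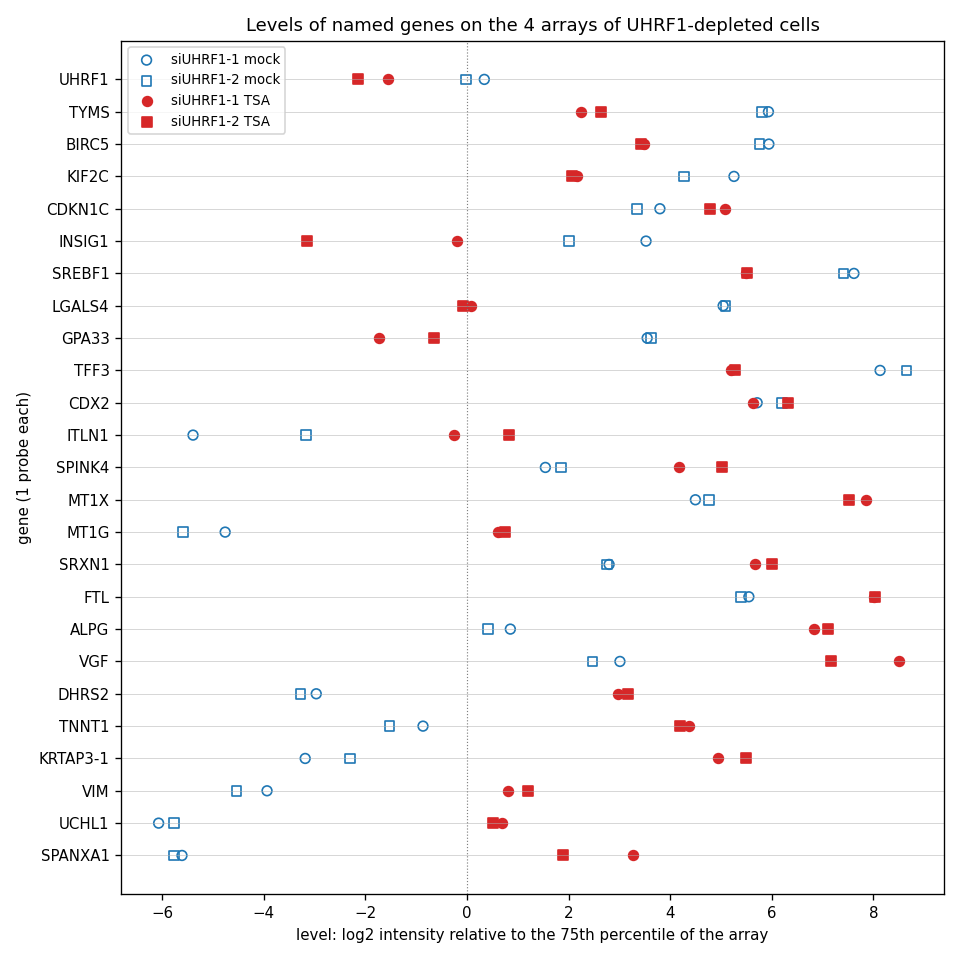
Levels (log2 scale, 0 at each array's 75th percentile, x axis) of named genes, 1 probe each, on the 4 arrays of UHRF1-depleted cells. Open blue symbols are mock and filled red symbols TSA, with circles for siUHRF1-1 and squares for siUHRF1-2. Both colours are apart for every gene shown except CDX2, where they overlap, and the gap is widest for SPANXA1 and KRTAP3-1.

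Genes of cell division were lower as a group. Of 54 G2 and M phase genes, all of which passed the filter on dim probes, 45 were called lower and 0 higher, against 10.6% and 12% of all genes, and their median change was −1.78. Of 43 S phase genes 30 were called lower and 0 higher, with a median of −1.20, and all 43, UHRF1 among them, were below 0 with both siRNAs. The median of the G2 and M phase genes was −2.25 with siUHRF1-1 and −1.39 with siUHRF1-2. KIF2C, a kinesin that depolymerises microtubules at centromeres, went from 5.25 and 4.27 to 2.17 and 2.07. Survivin (BIRC5), a passenger protein of mitotic chromosomes, went from 5.94 and 5.76 to 3.49 and 3.43, a change of −2.39 (SE 0.23, limma adjusted p 0.00114). GTSE1, PIMREG, PSRC1 and the centromeric histone CENPA changed by −2.56, −2.54, −2.50 and −2.09. Cyclin B2 (CCNB2) went from 5.64 and 5.03 to 3.18 and 3.26. Thymidylate synthase (TYMS) was the S phase gene with the largest fall, from 5.93 and 5.80 to 2.25 and 2.64, a change of −3.42 (SE 0.25, limma adjusted p 0.000541). The replicative helicase subunit MCM4, the uracil glycosylase UNG and CDCA7 fell by 2.10, 2.35 and 2.24 on the log2 scale. The clamp PCNA fell by 1.14. Of 9 G2 and M phase genes that were not called, ANP32E and JPT1 had changes above 0, at 0.46 and 0.54.

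Of 21 G1 cyclins, CDKs, E2F and RB genes 6 were called lower and 2 higher, against 10.6% and 12% of all genes, so that the higher ones were no more frequent than among all genes. The E2F partner TFDP1 and the atypical E2F gene E2F8 fell by 1.46 and 1.43, and E2F4 by 1.17. CCNE2 fell by 1.58 on its brighter probe, while its other probe changed by 0.01 (limma adjusted p 0.984). CDK6 rose by 1.38. Cyclin D2 (CCND2) was not well above background under mock and was at least 3.5-fold higher with TSA, while cyclin D1 (CCND1) had a change of 0.26 (limma adjusted p 0.494). Of 7 CDK inhibitors 3 were called higher and 0 lower. CDKN1C had levels of 3.80 and 3.35 under mock and 5.08 and 4.78 with TSA. CDKN2B was at least 4.33-fold higher. CDKN1A, which encodes p21, had levels of −2.43 and −4.90 under mock and −0.98 and −1.83 with TSA on its only probe, and 1 of 2 mock arrays was well above background (change 2.26, SE 0.40, limma adjusted p 0.00925). CDKN1B, CDKN2A, CDKN2C and CDKN2D did not pass, with changes of 0.11, 0.00, −0.38 and −0.68. MYC had a change of 0.33 (limma adjusted p 0.392). Among genes known from other work to respond to HDAC inhibitors, 10 of 20 known risers were called higher and 1 lower, and 6 of 9 known fallers were called lower and 0 higher.

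The promoters of these genes were searched for motifs, since the members moved together. Sequences were RefSeq promoters (GRCh38.p14, 250 bases before to 50 after the first start listed for a gene), and both strands were read. The CHR element of G2 and M phase genes was searched as TTTGAA and also in the variant form TTCGAA, the NF-Y box as CCAAT, the E2F site as TTTCCCGC and TTTGGCGC and the SP1 box as GGGCGG. On the other strand the first form of the CHR element reads TTCAAA, and the first E2F site reads GCGGGAAA. Hits of different motifs may overlap. Of 45 promoters found for the G2 and M phase genes, 73.3% held a CHR element and 68.9% a CCAAT box, against 16.6% and 35.7% of 27305 genes in the table and 10.4% and 36.5% of tested genes that were not called. Both were held by 60% against 6.58%. Among the G2 and M phase genes the CHR letters were in 26 of 37 promoters of members called lower and in 7 of 8 of members not called. An E2F site was held by 40.6% of 32 S phase promoters and by 2.31% of all. These shares describe the lists, and a match is not a bound site. Below are the 120 bases before the start of genes with a large fall from the lists, with the hits of the CHR, CCAAT or E2F letters in capitals. They were picked because the letters stand close to the start in each, and the same stretch before KIF2C, the G2 and M phase gene with the largest fall, held 0 hits.
CCNB2 (chr15:59105026-59105145, plus strand): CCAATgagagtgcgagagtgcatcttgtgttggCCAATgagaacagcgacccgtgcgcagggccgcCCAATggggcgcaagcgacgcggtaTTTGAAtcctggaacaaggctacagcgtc
GTSE1 (chr22:46296750-46296869, plus strand): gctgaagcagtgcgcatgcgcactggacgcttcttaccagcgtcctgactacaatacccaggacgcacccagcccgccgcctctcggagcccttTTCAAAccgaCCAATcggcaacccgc
PSRC1 (chr1:109283146-109283265, minus strand): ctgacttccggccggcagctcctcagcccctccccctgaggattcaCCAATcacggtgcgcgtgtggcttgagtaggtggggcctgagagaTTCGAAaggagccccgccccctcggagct
TYMS (chr18:657533-657652, plus strand): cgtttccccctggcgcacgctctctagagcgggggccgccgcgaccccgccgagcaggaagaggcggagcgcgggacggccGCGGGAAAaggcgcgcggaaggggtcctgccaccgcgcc
UHRF1 (chr19:4909381-4909500, plus strand): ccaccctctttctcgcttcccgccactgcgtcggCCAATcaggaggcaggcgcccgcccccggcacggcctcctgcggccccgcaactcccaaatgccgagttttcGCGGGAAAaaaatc

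The CCNB2 stretch held 3 CCAAT boxes before a CHR element whose first base lies 29 bases before the start. The UHRF1 promoter held the E2F letters on the other strand, 14 bases before the start, as did TYMS at 39 bases. Over all genes called, promoters of genes called higher held the SP1 letters less often than those of genes called lower, in 60.9% of 1272 and 68.6% of 1193, and the share was 68.5% of 8660 tested genes that were not called. The difference between these shares was not tested.

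**Figure D3:**
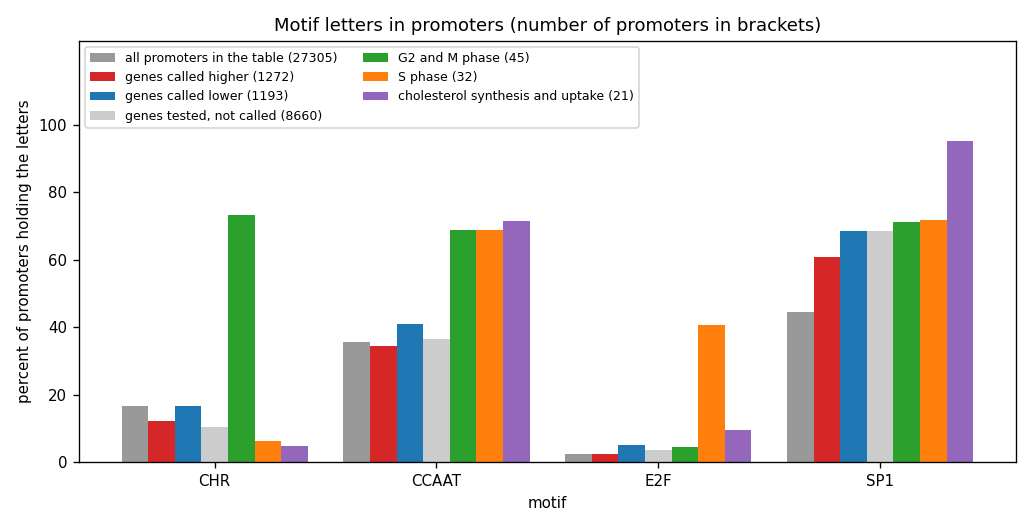
Percent of promoters (y axis) that hold the letters of each motif (x axis) on either strand, for all promoters in the table, for genes called higher, called lower or not called, and for 3 gene lists. The green bar of the G2 and M phase genes stands at 73.3% for CHR, and the orange bar of the S phase genes at 40.6% for E2F.

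Sterol genes were also lower. Cholesterol is made through the mevalonate pathway or taken up from lipoproteins, and transcription factors of the SREBP family drive the genes of both. All 28 genes of cholesterol synthesis and uptake passed the filter. Of these 22 were called lower and 0 higher, against 10.6% and 12% of all genes. Their median change was −1.42 (−1.47 with siUHRF1-1 and −1.30 with siUHRF1-2). INSIG1, which holds SREBPs in the endoplasmic reticulum, went from 3.52 and 2.00 to −0.20 and −3.15, a change of −4.44 (SE 0.37, limma adjusted p 0.000751). The transcription factor gene SREBF1 fell by 2.01 on its brighter probe, while its other probe had a change of 0.17 (limma adjusted p 0.622). The sterol oxidase gene MSMO1 fell by 2.07. The 6 members not called lay between −0.90 and 0.73, and INSIG2 was the highest of them. Of 21 promoters found for these genes 95.2% held the SP1 letters and 71.4% a CCAAT box, against 44.6% and 35.7% of all and 68.5% and 36.5% of tested genes that were not called, and the sterol regulatory element TCACNCCAC was found in 1. The 120 bases before the MSMO1 start are given because both letters stand there, with SP1 and CCAAT hits in capitals.
MSMO1 (chr4:165327549-165327668, plus strand): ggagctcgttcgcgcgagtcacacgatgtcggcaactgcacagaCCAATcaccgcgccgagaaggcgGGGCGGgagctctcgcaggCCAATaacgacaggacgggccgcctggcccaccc

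Fatty acid genes followed in part. Of 12 tested genes of fatty acid synthesis 5 were called lower and 1 higher, against 10.6% and 12% of all genes. The desaturase SCD fell by 2.29 and the acetyl-CoA carboxylase ACACA by 2.12. Fatty acid synthase (FASN) went from 5.32 and 5.56 to 3.35 and 4.48. The desaturase FADS1 rose by 1.78. Of 16 tested genes of ketogenesis and PPAR targets 7 were called lower and 0 higher, against the same 10.6% and 12%. Among the lower were FABP1 above, the acyl-CoA synthetase ACSL5 (change −2.87) and ANGPTL4, an inhibitor of lipoprotein lipase. ANGPTL4 went from 5.66 and 3.58 to 2.44 and 1.80.

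**Figure D4:**
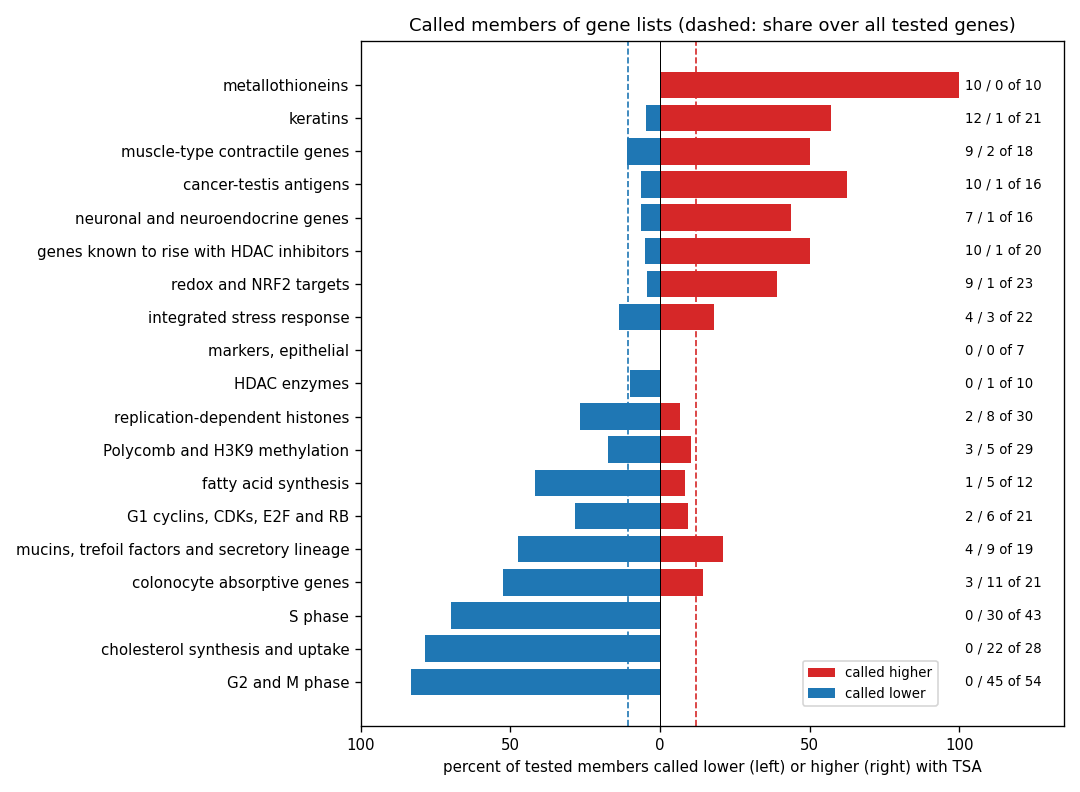
Percent of tested members called lower (blue, to the left) or higher (red, to the right) with TSA for 19 gene lists. Numbers at the right are members called higher, called lower and tested, and dashed lines are the shares over all tested genes (12% higher, 10.6% lower). Blue bars reach farthest for the G2 and M phase genes (45 of 54), and all 10 tested metallothioneins are red.

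Genes of the differentiated colon split into those that fell and those that rose. Of 39 colonocyte genes 21 were tested, with 11 called lower and 3 higher. The median change was −1.22 over those tested and −0.24 over all 39. Villin (VIL1), which bundles actin in microvilli, went from 3.72 and 4.32 to 0.97 and 2.07. The intestinal cadherin CDH17 fell by 1.86 and keratin 20 (KRT20) by 1.37. The intestinal transcription factor CDX2 had levels of 5.71 and 6.19 under mock and 5.63 and 6.31 with TSA, and these overlapped. Carbonic anhydrase CA2 went from 0.95 and 1.58 to 2.72 and 2.82. The protocadherin CDHR5 rose by 2.06. LGALS2, well above background on 1 of 2 mock arrays, had levels of −1.08 and −0.89 with TSA and was called higher. Of 19 tested secretory genes 9 were called lower and 4 higher. The trefoil factors TFF1, TFF2 and TFF3, secreted peptides of mucosal repair, changed by −3.76, −3.63 and −3.15. TFF3 was the brightest of them, at 8.13 and 8.65 under mock and 5.20 and 5.28 with TSA, and 1 of its other probes was not called (change −0.94). REG4 went from 4.93 and 6.62 to 2.08 and 3.12. Against these, the goblet cell peptide SPINK4 went from 1.54 and 1.85 to 4.18 and 5.02, intelectin (ITLN1) from −5.39 and −3.17 to −0.25 and 0.82, and ZG16 rose by 2.26. The channel BEST2 was called higher, at −0.19 and 0.20 with TSA. ITLN1 and BEST2 were well above background on 1 of 2 mock arrays. Of 16 tested crypt stem and Wnt target genes 3 were called lower and 0 higher, against 10.6% and 12% of all genes, and the list's median was −0.15. The stem cell factor ASCL2 fell by 2.59, CD44 by 1.67 and EPHB2 by 1.34. The other tested probe of CD44 had a change of 0.31 (limma adjusted p 0.367).

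Metal-binding and redox genes were higher. All 10 tested metallothioneins, small cysteine-rich proteins that bind zinc and copper, were called higher, with a median change of 2.58. MT1X went from 4.50 and 4.77 to 7.85 and 7.53, a change of 3.06 (SE 0.26, limma adjusted p 0.000804). MT1H and MT1B rose by 2.96 and 2.95. MT1G was not well above background under mock, at −4.76 and −5.59, and had levels of 0.62 and 0.75 with TSA, at least 19.5-fold higher. Metallothionein genes are close copies, and probes for them can share signal. Of 23 tested redox genes and NRF2 targets 9 were called higher and 1 lower, against 12% and 10.6% of all genes. The sulfiredoxin SRXN1 rose by 3.05. Thioredoxin reductase TXNRD1, haem oxygenase HMOX1 and ferritin light chain FTL rose by 2.83, 2.82 and 2.56, and the cystine carrier SLC7A11 by 1.78. TXNIP, which binds thioredoxin, fell by 1.32. Of 22 genes of the integrated stress response 4 were called higher and 3 lower, near the shares of all genes, and the list's median change was 0.11. ATF3 rose by 3.11 on its brightest probe, with 1 of its other tested probes not called at 0.14, and the asparagine synthetase ASNS rose by 2.11, whereas NUPR1 went from 3.85 and 3.58 to 0.28 and −0.36.

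Genes that are rarely expressed in colon appeared in several families, and for these the filter matters. A probe that is dim under mock enters the test only if it is bright with TSA, so counts over tested members are given with those over the whole family. Of all tested genes 12% were called higher and 10.6% lower. Of 35 keratins 34 were on the array and 21 were tested, with 12 called higher and 1 lower. The median change was 1.64 over those tested and 0.55 over all on the array. KRT9 was at least 14.6-fold higher, and the basal keratins KRT14 and KRT17 were at least 3.23-fold and 2.43-fold higher. KRT8, KRT18 and KRT19, the keratins of simple epithelia, had changes of 0.71, 0.43 and 0.43, and none passed. Of 30 cancer-testis antigens 24 were on the array and 16 were tested, with 10 called higher and 1 lower. CTAG2 was the lower one, at 1.07 and −0.03 under mock and −0.67 and −0.83 with TSA. MAGEC1 and PAGE1 were at least 2.11-fold and 1.63-fold higher. Of 40 neuronal and neuroendocrine genes 16 were tested, with 7 called higher and 1 lower (RAB3A, change −1.11). Chromogranin A (CHGA) was at least 8.35-fold higher and neuronal tubulin TUBB3 rose by 1.78. Of 34 muscle-type contractile genes 18 were tested, with 9 called higher and 2 lower. The smooth muscle genes MYL9 and CNN1 were at least 7.46-fold and 7.26-fold higher, and TPM2 fell by 1.73. Of 31 germline genes 10 were tested, with 3 called higher (TEX14, TEX19, GTSF1) and 2 lower (SYCE2, PIWIL4). Over tested members the median change was 1.33 for cancer-testis antigens, 0.86 for neuronal, 1.25 for muscle-type and −0.32 for germline genes. Over all members on the array these medians were 1.06, 0.40, 0.56 and 0.16. Vimentin (VIM), the intermediate filament of mesenchymal cells, went from −3.93 and −4.54 to 0.81 and 1.21 and was at least 24.4-fold higher. COL1A1 and THY1, which also mark fibroblasts, were at least 7.67-fold and 3.63-fold higher, and the fibroblast marker PDGFRB changed by −1.56 to below background. The part of other cells in these values was not tested.

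The study's own set of silenced genes was mostly dim. Of its 9 members 3 passed the filter, UCHL1 and DKK1 only through their TSA arrays. SFRP1, SFRP2, SFRP5, GATA4 and GATA5 were not well above background on any of the 4 arrays, and TIMP3 was so on 1 of 2 TSA arrays. The study chose the set as genes silenced by methylation and reported their re-expression, so they are not independent evidence of direction. The deubiquitinase UCHL1 had levels of −6.07 and −5.77 under mock and 0.70 and 0.51 with TSA, at least 18.4-fold higher (limma adjusted p 0.000248). The Wnt antagonist DKK1 went from −5.71 and −5.40 to 1.21 and −0.84, at least 13.8-fold higher. NEURL1 went from 0.86 and 1.16 to 1.91 and 1.86, a change of 0.87 that was under 2-fold (limma adjusted p 0.0391). Of 7 markers of the CpG island methylator phenotype 4 were tested, and CRABP1, NEUROG1 and RUNX3 were too dim. Among those tested the growth factor IGF2 went from 0.89 and 1.03 to 5.24 and 5.13, and the cytokine suppressor SOCS1 rose by 1.79. The calcium channel CACNA1G, not well above background under mock, was at least 9.77-fold higher, and CDKN2A had a change of 0.00.

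Genes of the chromatin machinery were called in shares from 10% of HDAC genes to 36.4% of variant histone genes, on both sides of the 22.7% of all genes. Of 10 tested HDAC genes, which encode the targets of TSA, 0 were called higher and 1 lower (HDAC10, from −0.15 and −0.34 to −1.73 and −1.80). Of 25 subunits of HDAC corepressor complexes 4 were called lower and 1 higher, 20% in all and near the share of all genes. The NuRD helicase CHD3 fell by 1.93, RCOR2 by 1.45, RBBP4 by 1.34 and MTA1 by 1.05, and GPS2 rose by 1.16. The sirtuin SIRT2 rose by 1.65. Of 13 acetyltransferases 2 were called lower (KAT8 and KAT2A), and of 7 tested bromodomain genes 1 was (BRD8). DNMT1 went from 2.74 and 2.59 to 1.51 and 1.41, a change of −1.21 (SE 0.23, limma adjusted p 0.0119). DNMT3L rose by 2.40, with 1 of 2 mock arrays well above background. The H3K9 methyltransferase genes SUV39H1, EHMT2 and SUV39H2 fell by 1.55, 1.51 and 1.31, and the heterochromatin protein gene CBX5 by 1.79. In the Polycomb group BMI1 rose by 1.96, JARID2 by 1.13 and CBX6 by 1.07. Of 30 tested replication-dependent histone genes 8 were called lower and 2 higher. H2BC7 and the linker histone H1-5 fell by 2.52 and 2.28, and H1-2 rose by 1.79. Histone genes are close copies as well. H2AX, the variant phosphorylated at DNA breaks, went from 4.94 and 4.94 to 2.91 and 2.65.

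Signalling genes were found in both directions. The share called was 34.8% of tested Notch genes and 40% each of the interferon and ERK feedback lists. It was 37.5% for ERBB genes, 25% for the BCL2 family, 16.7% for MHC class I presentation and 14.3% for death receptors and caspases. Of all genes 22.7% were called, 12% higher and 10.6% lower. Of 23 tested Notch genes 4 were called higher and 4 lower, with JAG1 up by 1.43 and JAG2, from 2.01 and 1.64 to −0.03 and −0.89, among the lower. Of 30 tested interferon-stimulated genes and RNA sensors 6 were called higher and 6 lower, against the same 12% and 10.6%. IFI6 rose by 2.58 and IFI27 by 1.79, whereas IFITM1 and the RNA sensor TLR3 fell by 2.29 and 2.08. The immunoproteasome genes PSMB10 and PSMB8 fell by 2.23 and 1.96. The receptor gene ERBB2 fell by 2.07 on its brighter probe, but its dimmer probe, not well above background on either mock array, was called higher (limma adjusted p 0.000664). ERBB3 fell by 1.96 on its brightest probe, and one of its others had a change of 0.06 (limma adjusted p 0.868). Of 20 tested ERK feedback and immediate early genes 6 were called higher and 2 lower. The ERK phosphatase genes DUSP5 and DUSP4 rose by 3.14 and 1.84. The ERK inhibitor gene SPRY4 fell by 2.13 on its brighter probe, with a change of −0.23 on the other, which was not called. SPRY1, of the same family, rose by 2.07 on its brighter probe and by 1.71 on the other, and both were called. Of 16 tested BCL2 family genes the BH3-only BBC3, BID and BCL2L11 were called lower and BMF higher. In BCL2L11 the dimmest of 3 tested probes changed by 0.62 (limma adjusted p 0.115). Among death receptor and caspase genes BIRC3 rose by 2.64 and CASP10 by 2.05 on its brightest probe, with changes of 0.15 and 0.41 on its other tested probes, which were not called, and the ligand TNFSF10 fell to below background.

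The response was set beside that of siCONT cells, to ask whether TSA acted differently after UHRF1 depletion. Both siCONT arrays of an agent differed hardly more than spots of one probe on a single array (1.18 times that noise with mock and 1.09 times with TSA), so they were counted as 1 sample. Of the 3014 probes called higher in depleted cells 2687 also changed upward in siCONT cells and 1752 did so at least 2-fold. Of the 2298 called lower 2084 changed downward and 1035 at least 2-fold. The median change of the higher probes was 1.92 in depleted and 1.25 in siCONT cells, and that of the lower probes −1.38 and −0.90. Since these probes were chosen for their size in depleted cells, a smaller median elsewhere can follow from the choice. The difference of the TSA effect was itself tested on 24589 probes. At an unadjusted limma p under 0.05 and a difference of at least 1 on the log2 scale there were 2999. With adjustment 1 (0.00407%) was called by limma. This was BX648590 (chromosome X, 28520064 to 28520123, hg19), a transcript without a current gene symbol. It had levels of −5.75 and −5.44 with mock and 2.37 and 2.27 with TSA in depleted cells, and −5.80 and −5.69 with TSA in siCONT cells. The difference was 8.26 (SE 0.42, limma adjusted p 0.0467). The call was lost, and 0 probes were called, with quantile normalization and with all 8 arrays and the replicate block. Other fits called more, 3 with median scaling and 1195 with all 8 arrays and no replicate block. The latter counts both siCONT arrays of an agent as separate samples. In the reported fit the 2 siCONT differences were counted as 1, and its spread was taken to be that of the siRNAs.

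Other named genes had large but uncalled differences, each with a limma adjusted p above the threshold. For UCHL1, SPANXA1 and MT1G the TSA changes in siCONT cells were −0.35, 0.60 and −0.60, and none was well above background on any siCONT array (limma adjusted p of the difference 0.07 for each). The gap connexin GJA1 had the same pattern and the same adjusted p. Among the lower genes FABP1 changed by −1.32 in siCONT cells and NUPR1 by −0.24, with limma adjusted p of the difference of 0.12 and 0.0925. FABP1 was not well above background on any siCONT array, so its change there lies between values at the floor. Next in order also stood CA6, but its difference rests on 1 siCONT mock array at 7.79, while the other lay at −2.81. Where the sterol genes are concerned, INSIG1 had a siCONT change of −5.59 beside −4.44 in depleted cells, and the list medians were −1.54 and −1.42. Those of the metallothioneins were 1.93 and 2.58. The medians of the G2 and M phase genes were −0.81 in siCONT and −1.78 in depleted cells, and those of the S phase genes −0.51 and −1.20. No single member was called for the difference in the reported fit. UHRF1 itself changed by −0.97 in siCONT cells (difference −1.04, SE 0.41, limma adjusted p 0.394).

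**Figure D5:**
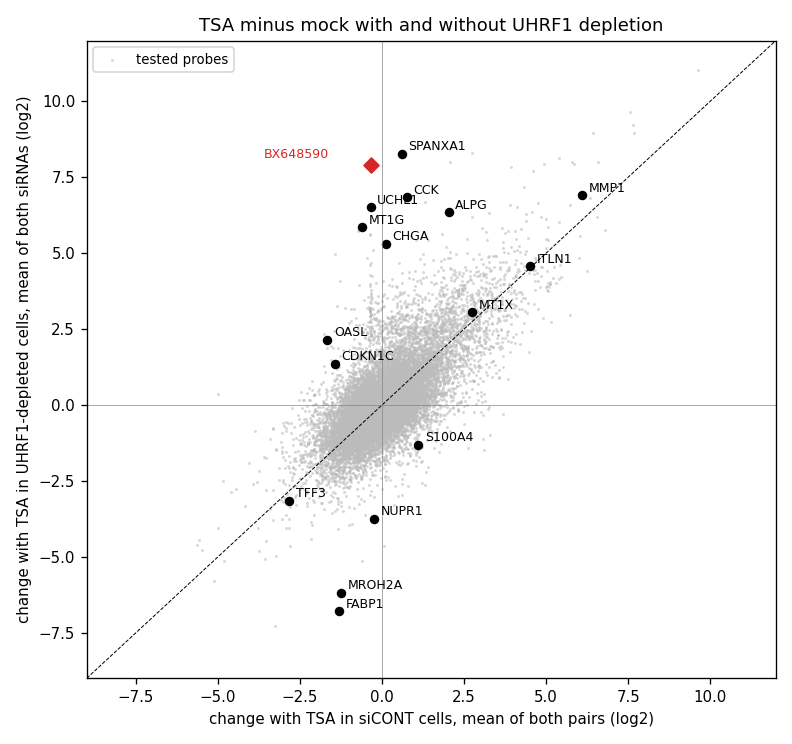
Log2 change with TSA in siCONT cells (mean of both pairs, x axis) and in UHRF1-depleted cells (mean of both siRNAs, y axis) for 23912 tested probes in grey, with named genes in black and the 1 probe called for the difference, BX648590, as a red diamond. Points on the dashed line changed alike, and MT1X and ITLN1 lie near it, while UCHL1, MT1G, CHGA and SPANXA1 lie near 0 on the x axis only.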

How the data were processed

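RNA of 8 samples was hybridised to 1-colour Agilent arrays. The authors deposited scanner output of Agilent Feature Extraction 10.7 with a background-subtracted intensity for each spot (gProcessedSignal). Their value table held the same intensities (ratio of both between 0.995 and 1.005), with no further scaling. Here the spots of a probe were averaged without outlier-flagged spots, and log2 intensities were set to the 75th percentile of the array. A probe was tested if well above background on both arrays of either group. Tests were limma 3.58.1 fits in R 4.3.3 on the 4 arrays of depleted cells with siRNA as a block and Benjamini-Hochberg adjustment over all probes, called at adjusted p under 0.05 and at least 2-fold. The difference from siCONT was fitted on 3 TSA minus mock differences. The numbers pair the arrays because the labels give the same siRNA to both arrays of a number. The siRNA differences under mock and TSA had r = 0.32 over 20872 probes. The fit was tested on simulated data.

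Names came from RefSeq through the files' accessions for 28388 probes and from the file's name otherwise. For a gene with several probes, the one with the highest mean over 8 arrays was used, and 6 of 48 named genes with several tested probes had probes of both signs. Probe positions are the files' hg19 coordinates. The 50 gene lists (958 genes) and the comparison were chosen with earlier results of these data known. Named genes are UHRF1, the 10 largest rises and falls among called genes with a symbol, up to 4 called members in each direction of each list, all members of lists of up to 10, and genes with opposite 2-fold changes between siRNAs. Genes measured on both sides, and list members given beyond 4, were added after values had been seen. The alternatives were other scalings, background corrections, filters, blocks, arrays and tests. Some named genes are not reported here.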

Additional observations from a re-analysis of the deposited data

Results flagged for a closer look

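BX648590 stood out in the test of the difference between depleted and siCONT cells, with a difference of 8.26 on the log2 scale (limma adjusted p 0.0467). With quantile normalization, and with all 8 arrays and the replicate block, 0 probes were called. There were 3 with median scaling and 1195 with all 8 arrays and no replicate block. All 4 siCONT arrays and both mock arrays of depleted cells did not rise clearly above background for its probe, so the size depends on values at the floor.

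Among named genes called in depleted cells and well above background on both siCONT arrays of at least 1 agent, 10 changed one way in both siRNA pairs and the other way in both siCONT pairs. These differences did not pass the reported limma test of the difference, so they are given as directions only. Both siCONT arrays of an agent differed by about spot noise, so the siCONT pairs are not separate observations. Some of the siCONT changes were small. In siCONT cells TERT changed by 0.12, CCNE2 by 0.36, KRT20 by 0.28, XBP1 by 0.036 and S100A4 by 1.10, while each was called lower in depleted cells. CDKN1A changed by −0.22, CDKN1C by −1.44, HES7 by −0.10, OASL by −1.67 and H2AJ by −0.62 in siCONT cells, while each was called higher in depleted cells. The smallest limma adjusted p of the difference among these 10 was 0.096, for OASL (both siCONT pairs lower, both siRNA pairs higher), and it was 0.111 for CDKN1C. MT1G, UCHL1, DKK1, KRT14, GTSF1 and CTAG2 also had opposite signs, but siCONT values of these genes lay at or near the floor and have no order. The limma adjusted p of the difference was 0.07 for MT1G and UCHL1, 0.0841 for KRT14, and higher for the other ones.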

How the results depend on the processing

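The count of called probes in depleted cells (5312) fell to 2398 with normexp background correction, to 3500 with probes well above background on all 4 arrays only, and to 3282 and 0 with the methods' t-test before and after Benjamini-Hochberg adjustment. It ranged from 1891 to 4885 when single arrays were left out. Without the replicate block it was 4329, and the other alternatives gave 4947 to 7116. No probe called both there and in the reported fit had opposite directions. Scaling to the array median moved the median change to −0.43. The medians of 42 of 50 gene lists moved by more than the spread between the siRNAs with it, as did 29 with the percentile over detected probes, so list medians depend on the scaling. Called members of the gene lists numbered 329, 0 with the t-test after adjustment and 137 to 313 with single arrays left out. UHRF1 kept its direction throughout. Its change was −2.01 with an adjusted p of 0.17 in the t-test after adjustment, and −2.30 to −1.72 with single arrays left out. It was −1.17 with normexp and −2.40 with median scaling. The difference from siCONT, called for 1 probe, was called for 0 with quantile normalization, for 3 with median scaling, for 1195 with all 8 arrays and no replicate block, and for 0 with all 8 arrays and the replicate block. The cause of these shifts was not tested. Slide and scan could not be fitted as a block, since there was 1 of each. Probes near background have only bounds, which limits the size of changes from the floor.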
